A study of Mus musculus with 6 samples.

Results

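The beta-like globin genes of the mouse were examined in 6 RNA-seq libraries of fetal liver cells. The genes are Hbb-y, Hbb-bh1, Hbb-bs and Hbb-bt, chosen by symbol through GENCODE M21, and they make up 4 of the 54232 gene IDs in the deposited count files. All 4 passed the filter on low counts that left 16150 genes for testing. The cells came from C57/B6 embryos at E13.5 and were purified as Ter-119-negative, that is, without the marker that later red cell stages display. At day 0 the purified cells were taken untreated (3 libraries). The other 3 libraries come from such cells after 30 h of culture with erythropoietin (EPO), the main growth factor of red cell precursors. They received DMSO, the solvent control of the series, at 24 h and were exposed to it for 6 h. Time in culture, EPO and DMSO therefore cannot be told apart. Nothing in the labels says that libraries of a group came from separate embryos or cultures, so the p-values rest on a spread that may be technical.

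Beta-like globins pair with alpha-like globins and heme to form hemoglobin. Their genes lie in 1 cluster, the embryonic before the adult genes, downstream of a shared locus control region that contacts their promoters. Hbb-y and Hbb-bh1 are the embryonic genes, known for high expression in the primitive red cells of the yolk sac. Hbb-bs and Hbb-bt are the adult genes, the main beta globins of the definitive red cells made in the fetal liver and later in the marrow.

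Over the culture the adult genes and 1 embryonic gene rose, and the other embryonic gene fell. Of the 4 genes, 3 were higher and 1 lower at 30 h at an edgeR adjusted p below 0.05, against 34.4% of all tested genes higher and 40.1% lower (74.5% in either direction). The groups did not overlap for any of the 4, as for 79.7% of all tested genes. The counts of the 4 genes together made up 0.0933% ± 0.00873 (SD, n = 3) of a library at day 0 and 9.30% ± 2.35 (SD, n = 3) at 30 h.

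All 4 genes lie on chromosome 7 (mm10) on the minus strand, each with 3 exons in its full coding transcript. In the direction of transcription the order is Hbb-y, the pseudogene Hbb-bh0, Hbb-bh1, Hbb-bh2, the pseudogene Hbb-bh3, Hbb-bs and Hbb-bt. Hbb-y occupies 103851749 to 103853216, and the start of Hbb-bh1 (103841637 to 103843164) is 10.1 kb from the start of Hbb-y. Hbb-bs (103826534 to 103828096) starts 25.1 kb and Hbb-bt (103812524 to 103813996) 39.2 kb from it.

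How far reads can be told apart depends on the sequences, which are shown for this reason. Each gene codes for a reading frame of 444 bases including the stop codon. The first 120 bases of the coding sequence, from the GENCODE M21 transcripts, are given 5′ to 3′ with capitals where a base differs from Hbb-bs.
Hbb-y: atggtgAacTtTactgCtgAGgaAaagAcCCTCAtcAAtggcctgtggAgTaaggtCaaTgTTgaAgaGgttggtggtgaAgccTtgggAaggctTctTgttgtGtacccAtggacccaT
Hbb-bh1: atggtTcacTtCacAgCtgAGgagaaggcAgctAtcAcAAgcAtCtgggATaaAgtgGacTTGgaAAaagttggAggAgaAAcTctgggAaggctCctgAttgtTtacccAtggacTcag
Hbb-bs: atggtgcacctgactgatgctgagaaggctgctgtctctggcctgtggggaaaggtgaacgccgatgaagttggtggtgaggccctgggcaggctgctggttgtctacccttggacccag
Hbb-y differs from Hbb-bs at 31 of these bases and Hbb-bh1 at 34, whereas Hbb-bt has the same bases as Hbb-bs throughout this stretch. Over the whole reading frame the embryonic genes were 76.4% identical to each other and between 73.9% and 74.3% identical to the adult genes, with no identical run longer than 26 bases. No window of 50 bases in the transcripts of Hbb-y or Hbb-bh1 occurred in a transcript of another gene. The adult globin transcripts thus share no stretch of 50 bases with them.

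The adult pair is different. Hbb-bs and Hbb-bt differ at 1 base of the reading frame, C417T, counted from 1 at the A of the start codon with the Hbb-bs base first. The bases from 372 to 432 are shown with that base in capitals.
Hbb-bs: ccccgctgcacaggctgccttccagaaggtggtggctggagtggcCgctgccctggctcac
Hbb-bt: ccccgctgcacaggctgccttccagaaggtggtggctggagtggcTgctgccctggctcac
Of the 50-base windows in the full transcripts, 34.2% of those of Hbb-bs and 41.7% of those of Hbb-bt were found in no other gene, and most of these reach into an untranslated region. For Hbb-bt 113 of these 273 windows touch its 5′ untranslated region of 127 bases, against 39 of 198 for Hbb-bs (53 bases). The share of Hbb-bt thus depends on its annotated start, which lies further upstream in GENCODE M21 than in RefSeq. Reads from the remainder fit both genes, and no source used here says how they were counted. The level of each adult gene, and the split between them, is uncertain for that reason.

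Hbb-bs, an adult gene, stood at 387, 320 and 403 CPM in day 0 replicates 1, 2 and 3 and at 65692, 66889.9 and 106624 CPM in 30 h replicates 1, 2 and 3. CPM here is a gene's count relative to its library total after TMM scaling, edgeR's correction for differences in library composition. The highest value was that of 30 h replicate 3, and the day 0 values lay far below all 3 cultured libraries. The mean went from 370 ± 44.1 to 79735 ± 23294 CPM (SD, n = 3 each), a log2 change of 7.75 ± 0.28 (SE; edgeR quasi-likelihood adjusted p = 6.9093e-07). Only 13 of the 16150 tested genes had a larger fitted rise. Hbb-bs ranked 1 of all genes in each 30 h library, by CPM and by CPM per kb of exon, and between 32 and 40 at day 0 by CPM per kb.

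Hbb-bt, the other adult gene, had 219, 193 and 224 CPM in the day 0 libraries and 25008, 26291 and 38154 CPM at 30 h. It ranked 2 in each 30 h library, directly after its neighbour. Its log2 change was 7.14 ± 0.23 (SE; edgeR adjusted p = 4.9484e-07). With the counts of Hbb-bs plus Hbb-bt summed into 1 row, which does not depend on how shared reads were split between them, the log2 change was 7.56 ± 0.26 (SE; edgeR adjusted p = 6.3371e-07).

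Hbb-bh1, an embryonic gene, was the least abundant of the 4 at day 0, with 11.6, 13.1 and 14.5 CPM, that is, 409, 454 and 477 counts. At 30 h it stood at 961, 1025 and 1605 CPM, from 19468, 17198 and 25488 counts. All 3 cultured libraries lay above all 3 at day 0, and replicate 3 was again the highest. The log2 change was 6.52 ± 0.26 (SE; edgeR adjusted p = 8.7704e-07), and 27 tested genes had a larger rise. Per kb of exon it ranked between 16 and 19 of all genes in the 30 h libraries.

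Hbb-y, the embryonic gene nearest to the locus control region, moved the other way. It had 182, 184 and 213 CPM at day 0, from 6424, 6391 and 7030 counts. At 30 h it had 18.1, 21.2 and 23.7 CPM, from 367, 356 and 377 counts. The groups did not overlap, and the log2 change was -3.20 ± 0.14 (SE; edgeR adjusted p = 1.1583e-06). A larger fall was fitted for 1306 genes. In bulk RNA, fewer cells of a type and less RNA per cell cannot be told apart.

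**Figure D1:**
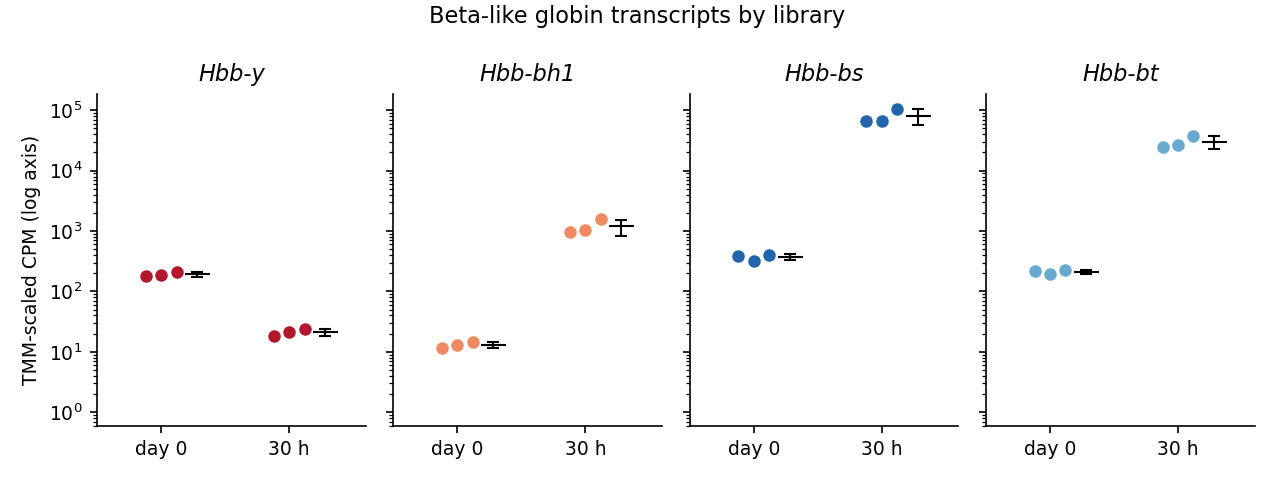
TMM-scaled CPM (log axis) of each gene at day 0 and 30 h, with a point for each library and the mean with SD (n = 3) to the right of the points. Hbb-y is lower in all 3 cultured libraries, while Hbb-bh1, Hbb-bs and Hbb-bt are higher in all 3.

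The spread between cultured libraries was wider than counting error. At 30 h the coefficient of variation of CPM was 29.2% for Hbb-bs, 24.3% for Hbb-bt, 29.6% for Hbb-bh1 and 13.4% for Hbb-y, where counting alone gives at most 0.151% for the adult genes, 0.763% for Hbb-bh1 and 5.30% for Hbb-y. Without 30 h replicate 3, the library with the highest value of each gene, the log2 changes were 7.49 for Hbb-bs, 6.92 for Hbb-bt, 6.25 for Hbb-bh1 and -3.30 for Hbb-y. Each of the 4 stayed past the threshold.

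The shares of the members within the cluster do not depend on library scaling. Hbb-y held 22.7%, 26.0% and 24.97% of the beta-like counts in the day 0 libraries and 0.0198%, 0.0225% and 0.0162% at 30 h. For 30 h replicate 1 the 95% Wilson interval of that share was 0.0178% to 0.0219%, which covers counting error only. Hbb-bs held more of the cluster at 30 h, 71.8% ± 0.931 against 46.9% ± 1.75 before culture (SD, n = 3 each). The share of Hbb-bt was 26.9% ± 0.617 and 27.1% ± 0.936 respectively, and the groups overlapped (difference 0.145 percentage points, two-sided exact permutation p = 0.9). Per kb of exon the difference was 1.57 percentage points (exact permutation p = 0.2). Hbb-bh1 held 1.66% ± 0.200 and 1.08% ± 0.0258, so its share was lower at 30 h although its level was higher.

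For Hbb-y, Hbb-bs and Hbb-bh1 the shares of the groups did not overlap (exact permutation p = 0.1, two-sided, the lowest value possible with 3 libraries a group). The embryonic genes together went from 26.2% ± 1.85 to 1.10% ± 0.0253 of the beta-like counts (SD, n = 3 each; exact permutation p = 0.1). The exons of the genes span between 613 and 768 bases, and the shares are of counts, not per length. Per kb of exon the Hbb-y share differed by -27.5 percentage points between the groups, against -24.5 for counts. The shares leave out reads that fit both adult genes if these were dropped in counting.

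**Figure D2:**
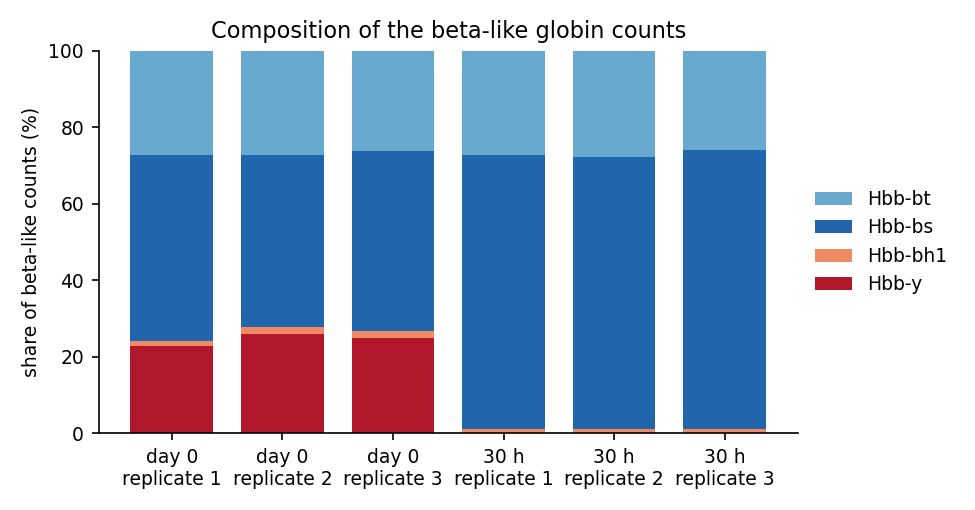
Share of the beta-like globin counts (%, stacked to 100) held by each gene in each of the 6 libraries. Hbb-y fills 22.7% to 26.0% at day 0 and is too thin to see at 30 h, while Hbb-bt keeps a share between 26.1% and 27.9% in all 6 libraries.

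Pairs of members were then compared as log2 ratios of their counts within each library. The ratio of Hbb-bh1 to Hbb-y, the embryonic pair, was -3.97, -3.81 and -3.88 at day 0 and 5.73, 5.59 and 6.08 at 30 h, a change of 9.69. Hbb-y had 14.8 times the counts of Hbb-bh1 at day 0, and Hbb-bh1 had 55.7 times those of Hbb-y at 30 h (geometric means over libraries). The ratio of adult to embryonic counts was 1.65, 1.38 and 1.46 at day 0 and 6.53, 6.48 and 6.47 at 30 h. These are 2.82 and 90.2 adult counts for each embryonic count. They leave out reads that fit both adult genes if these were dropped in counting, and would then be too low.

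The adult genes changed unequally as counted. The log2 ratio of Hbb-bt to Hbb-bs was -0.82, -0.73 and -0.84 at day 0 and -1.39, -1.35 and -1.48 at 30 h. Hbb-bs thus had 1.74 times the counts of Hbb-bt at day 0 and 2.65 times at 30 h, within the limit set by the reads that fit both. Against Hbb-bs, Hbb-bh1 went from a log2 ratio of -4.82 ± 0.23 to -6.06 ± 0.03 (SD, n = 3 each), or from 1 count per 28.3 of Hbb-bs to 1 per 66.7. For each of these ratios the groups did not overlap, and each two-sided exact permutation p was 0.1, the lowest possible here.

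Levels between genes were compared per kb of exon. At day 0 the order was Hbb-bs (482 ± 57.4 CPM per kb), Hbb-y (305 ± 27.7), Hbb-bt (302 ± 23.3) and Hbb-bh1 (21.3 ± 2.38). Hbb-y and Hbb-bt could not be ordered, since their values overlapped, while the other neighbours in this order did not overlap. The order holds for levels as counted and for exon lengths over all annotated transcripts, 768 bases for Hbb-bs and 703 for Hbb-bt. The full coding transcript of Hbb-bs has 628 bases, so its level per kb would be higher on that length. The Hbb-bt length includes a 5′ untranslated region of 127 bases. Of 50-base windows, 34.2% in Hbb-bs and 41.7% in Hbb-bt occurred in no other gene, against 100% in Hbb-y and Hbb-bh1. If shared reads were dropped in counting, the adult levels would be too low against the embryonic ones. The standing of Hbb-y against the adult genes at day 0 is therefore uncertain. At 30 h the order was Hbb-bs (103822 ± 30331 CPM per kb), Hbb-bt (42415 ± 10310), Hbb-bh1 (1952 ± 579) and Hbb-y (33.2 ± 4.45, SD, n = 3 throughout), and no neighbours overlapped. Along the chromosome, the fall at Hbb-y was followed by rises at Hbb-bh1, Hbb-bs and Hbb-bt, so the change of direction lay between the embryonic genes and not between embryonic and adult genes.

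The genes between and around the members had almost no counts. Within 100 kb on either side of the members the annotation holds 19 other genes, of which 13 are olfactory receptor genes, and 9 had a count in any library. Hbb-bh2, which lies next to Hbb-bh1, had 0 counts in all 3 day 0 libraries and 2, 5 and 3 counts at 30 h. The pseudogene Hbb-bh3, next to Hbb-bs, had 0 in each day 0 library and 2, 3 and 4 at 30 h. The pseudogene Hbb-bh0, next to Hbb-y, had 7, 4 and 9 counts at day 0 and 0, 2 and 1 at 30 h. The pseudogene Dnajc19-ps reached the highest count of these neighbours, 13 in 1 library, and none of them passed the filter on low counts.

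**Figure D3:**
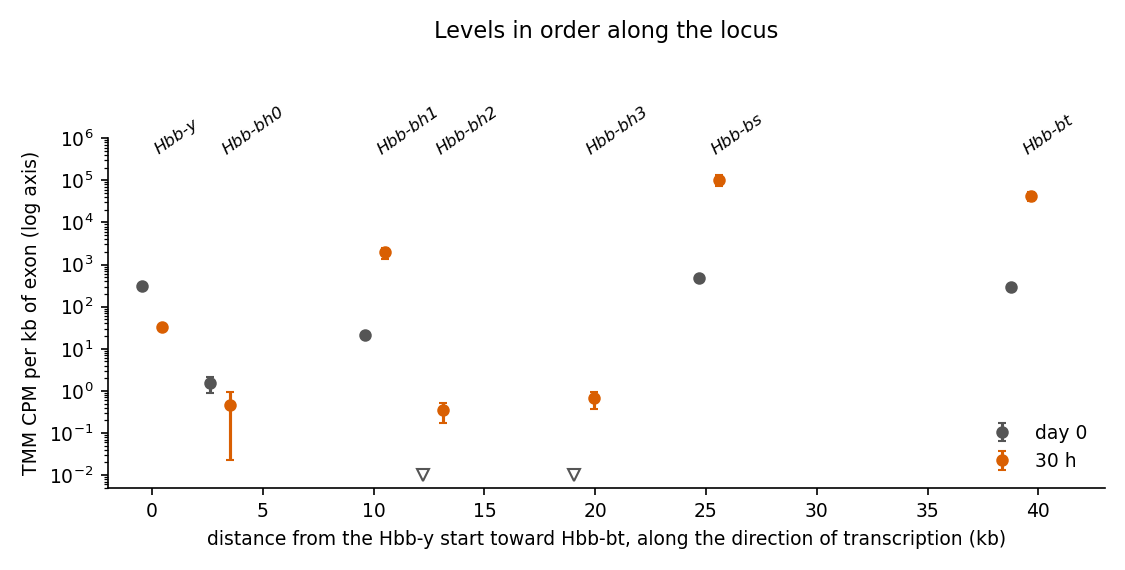
Mean TMM CPM per kb of exon (log axis, bars SD, n = 3) of the globin genes and pseudogenes against the distance of their start from that of Hbb-y in kb, with day 0 in grey and 30 h in orange. Open triangles mark groups with 0 counts in every library, the points of a gene are set apart sideways for legibility, and Hbb-bh2 and Hbb-bh3 stay near 0 between neighbours that rise.

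Promoter sequences are shown to set Hbb-y, which fell, beside the adult genes, which rose. RefSeq (GRCm38.p6) gave them for Hbb-y, Hbb-bs and Hbb-bt. The 120 bases before each RefSeq start are printed 5′ to 3′ in the direction of the gene, with capitals where either strand matches CACCC, or CCAAT, or the GATA forms AGATAA and also TGATAA, or the TATA-like forms TATAA and also CATAAA. They are chr7:103853208-103853327, chr7:103827929-103828048 and chr7:103813924-103814043, all on the minus strand. GENCODE M21 starts the coding transcripts of Hbb-y and Hbb-bt further upstream, inside the printed stretches.
Hbb-y: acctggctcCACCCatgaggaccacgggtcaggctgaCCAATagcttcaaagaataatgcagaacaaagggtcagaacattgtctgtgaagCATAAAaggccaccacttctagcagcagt
Hbb-bs: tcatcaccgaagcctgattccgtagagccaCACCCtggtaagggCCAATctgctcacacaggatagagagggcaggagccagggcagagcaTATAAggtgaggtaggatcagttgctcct
Hbb-bt: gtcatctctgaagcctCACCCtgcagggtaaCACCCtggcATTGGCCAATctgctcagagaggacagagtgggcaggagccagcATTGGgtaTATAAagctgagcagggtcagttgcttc
Each of the 3 held a CACCC match, the motif bound by KLF factors, a CCAAT match and a TATA-like match, in this order toward the start. The CACCC match nearest to the start began at -111 in Hbb-y, at -90 in Hbb-bs and at -89 in Hbb-bt, and Hbb-bt held another at -104. The TATA-like matches began at -29, -29 and -28. In Hbb-bt a reversed CCAAT match adjoins the forward match, and another precedes the TATA-like match. Of 32851 RefSeq promoters, 31.7% held CACCC and 21.3% held CCAAT in the same window, and 5244 held a TATA-like form. No GATA form lay in the printed windows (7.63% of all promoters held one). Within 250 bases before the start, Hbb-y held one from -162 and Hbb-bs from -210, while Hbb-bt held none (16.6% of all promoters held one). A match describes these letters only. Within the printed windows Hbb-y, which fell, and the adult genes, which rose, held the same kinds of match. The part of the promoters in the changes was not tested, and the promoter of Hbb-bh1 was not analysed here.

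The alpha-like globin genes, which supply the partner chains, were set beside the beta-like genes. Of 5 genes 4 were higher and 1 lower at an edgeR adjusted p below 0.05, against 34.4% higher and 40.1% lower among all tested genes. Their median log2 change was 5.82, against -0.09 for all tested genes. Hba-a1 and Hba-a2, the adult alpha genes, had log2 changes of 6.19 ± 0.14 and 5.82 ± 0.14 (SE). Hba-x, the embryonic gene at the head of the alpha cluster, fell by 2.06 on the log2 scale, from 36.9, 44.7 and 38.7 CPM to 8.98, 8.70 and 11.3 CPM (edgeR adjusted p = 8.247e-06). Hbq1b, a theta globin gene, went from 25, 24 and 18 counts to 2872, 2376 and 2981, and its near copy Hbq1a from 0, 5 and 0 counts to 50, 43 and 36.

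The clusters did not change to the same extent. The log2 ratio of Hbb-y to Hba-x counts was 2.30, 2.04 and 2.46 in the day 0 libraries and 1.01, 1.28 and 1.07 in the 30 h libraries, so the beta-like embryonic gene fell further. All beta-like counts over all alpha-like counts gave 3.52, 3.08 and 3.57 at day 0 and 7.39, 7.69 and 9.89 at 30 h. Neither pair of groups overlapped (two-sided exact permutation p = 0.1, the smallest possible). Of the 50-base windows of Hba-a2, 13.1% occurred in no other gene, and of Hba-a1 32.5%, so the alpha-like counts may lack more shared reads than the beta-like counts, and their part in the ratio was not tested.

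**Figure D4:**
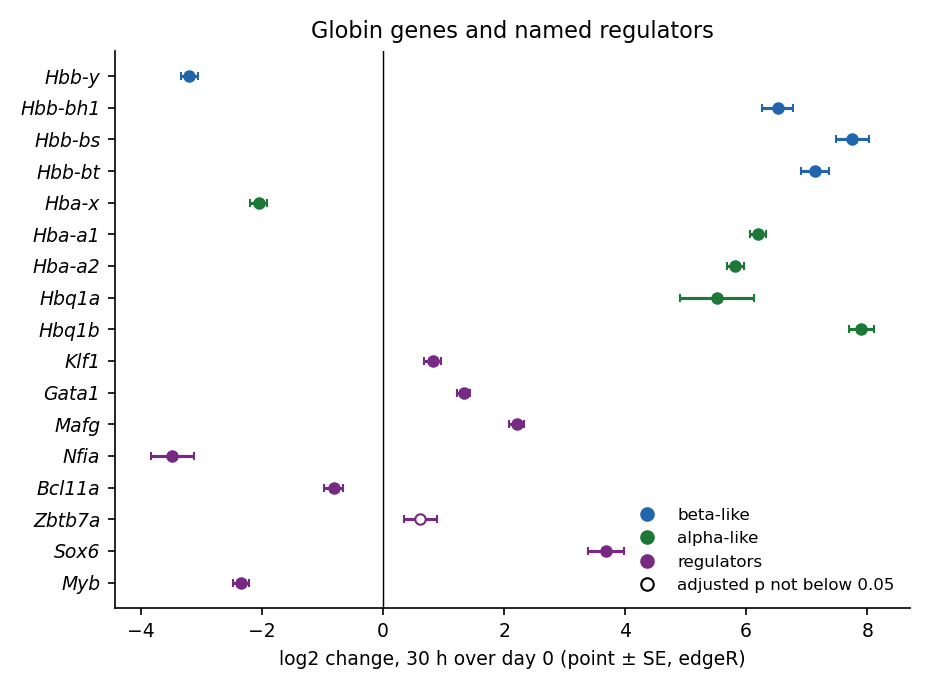
Log2 change at 30 h over day 0 from edgeR (point ± SE) for the beta-like genes, the alpha-like genes and named regulators, with an open point where the adjusted p was not below 0.05. Hbb-y and Hba-x lie left of 0, the other globin genes lie right of 4, and of the regulators Sox6 has the largest rise and Nfia the largest fall.

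Factors known to act on the locus were read from the same fit. Of 11 activators 6 were higher and 3 (Ldb1, Tcf3 and Nfia) lower, with a median log2 change of 0.82, against 34.4% higher and 40.1% lower among all tested genes. Ldb1, a cofactor of chromatin looping, had an edgeR adjusted p of 0.041. It lost its call without each of the day 0 libraries in turn and without 30 h replicate 2 (edgeR adjusted p between 0.062 and 0.102). Klf1, an activator of adult beta globin through the CACCC motif, had 267, 268 and 275 CPM at day 0 and 559, 483 and 385 at 30 h (log2 change 0.82 ± 0.14 SE, edgeR adjusted p = 0.00092532). With libraries scaled by their totals only, its log2 change was 0.33 and not past the threshold (adjusted p = 0.069383, edgeR). Gata1, the central erythroid factor, rose by 1.34 ± 0.11 on the log2 scale. Mafg, a small MAF partner of NFE2, had the largest rise of the list (2.21 ± 0.13 SE). Nfia, a nuclear factor I gene, had the largest fall (-3.48 ± 0.35 SE). Nfia had only 160, 184 and 161 counts at day 0 and 10, 2 and 11 at 30 h, so its fall rests on few reads.

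Of 16 genes listed as repressors of embryonic or fetal globin genes, 2 (Sox6 and Mbd2) were higher and 8 lower, with a median log2 change of -0.435. The 8 include Hic2 (log2 change -0.45, edgeR adjusted p = 0.0199), which is not a repressor of these genes and is misplaced in the list. The counts and the median include it. Among all tested genes 34.4% were higher and 40.1% lower. In the main fit the share of listed genes called thus lies below the 74.5% called overall. It did not lie below under upper-quartile scaling, scaling by totals only or without 30 h replicate 3, each with 13 called. This comparison thus has no fixed direction. The higher count was 4 without 30 h replicate 3, and 4 with DESeq2. Bcl11a, a repressor of embryonic globin genes, had 120, 127 and 126 CPM at day 0 and 84.9, 72.9 and 54.1 at 30 h (log2 change -0.82 ± 0.16 SE, edgeR adjusted p = 0.0019623). Sox6, which silences Hbb-y in definitive cells, had 7.58, 7.88 and 9.38 CPM at day 0 and 146, 109 and 63.5 at 30 h (log2 change 3.68 ± 0.30 SE, edgeR adjusted p = 1.851e-05). Myb, a progenitor factor tied to fetal globin control in humans, had the largest fall (-2.34 ± 0.13 SE).

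Zbtb7a, a repressor of fetal globin in humans, did not pass the test (183, 139 and 75.9 CPM at 30 h against 82.7, 90.1 and 87.1 at day 0, edgeR adjusted p = 0.072321). It passed with all 6 libraries under DESeq2 (adjusted p = 0.022123) and in edgeR with DESeq2 size factors (adjusted p = 0.040373). Without 30 h replicate 3 it also passed, with a log2 change of 0.90 (adjusted p = 4.7324e-05, edgeR). In that library Klf1, Gata1, Bcl11a, Zbtb7a and Sox6 were at their lowest of the 3 cultured libraries. All 4 beta-like genes were at their highest there. Some erythroid markers were also at their lowest there and others at their highest, and not all listed activators were at their lowest. The pattern is thus not particular to these regulators, and its cause was not tested.

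Markers of other cells moved in the same libraries. Erythroid markers rose in 8 of 8 cases, and their summed level went from 974 to 1047 CPM at day 0 to 16174 to 19838 CPM at 30 h. Hepatoblast markers were lower in 5 of 6 cases (summed 13246 to 14989 CPM, then 790 to 2284), endothelial markers in 5 of 5 (152 to 175 CPM, then 28.2 to 35.4) and mesenchymal markers in 5 of 5 (1419 to 1815 CPM, then 17.1 to 36.9). Macrophage markers were higher in 3 and lower in 1 of 6, megakaryocyte markers in 1 and 3 of 5 and granulocyte markers in 1 and 3 of 5. With 34.4% of all tested genes higher and 40.1% lower, nothing is read from these last 3 counts. No marker was at 0 in all 6 libraries. The part of cell makeup in the fall of Hbb-y or in the rises was not tested.

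The genes whose profile over the 6 libraries was most like that of each member were found among 9639 genes by the root mean square difference of log2 CPM, each centred on its own mean. Profiles over 2 groups mostly reflect the size of the change. For Hbb-y they were Trp53i11, a p53-induced gene (0.0755), Acot1, an acyl-CoA thioesterase gene (0.153), and H2afy2, a macroH2A gene (0.156). Trp53i11 had only 26, 26 and 30 counts at 30 h, Acot1 35, 39 and 43, and H2afy2 43, 49 and 40. Their places in this order thus rest on few reads. For Hbb-bh1 the closest genes were Neat1, the long non-coding RNA of paraspeckles (0.198), and Hba-a1 (0.221). The member closest to Hbb-bh1 was Hbb-bt (0.338), not its embryonic partner Hbb-y (4.84).

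For Hbb-bs the closest were Hbq1b (0.208), Trib3, a stress-induced pseudokinase gene (0.379), and Isg15, a ubiquitin-like interferon-induced gene (0.407), and its distance to Hbb-bt was 0.310. For Hbb-bt they were Trib3 (0.260), Mir144, the host position of an erythroid microRNA (0.306), and Apol11b (0.312). Mir144 had only 1, 0 and 3 counts at day 0 and Apol11b 2, 2 and 3, so their places in this order rest on few reads.

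**Figure D5:**
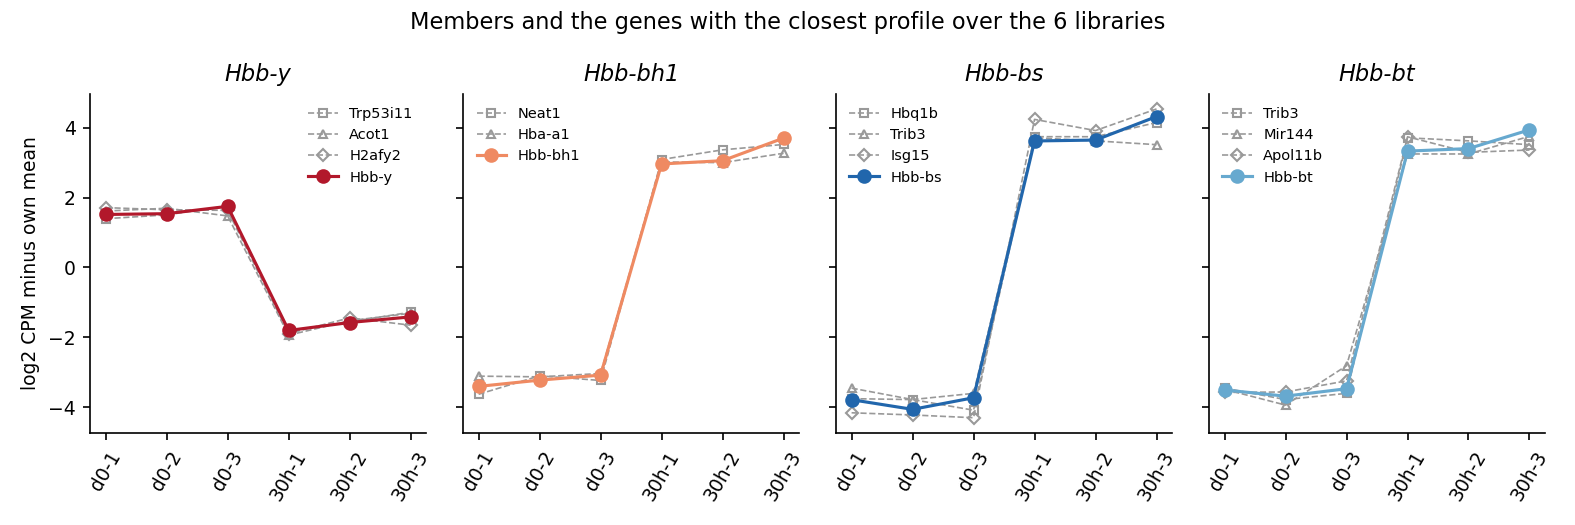
Log2 CPM minus the gene's own mean (y axis) in each of the 6 libraries (x axis) for each beta-like gene (coloured line) and the genes the text names as closest in profile (grey dashed lines). Trp53i11 follows Hbb-y within 0.0755 log2 units (root mean square), and the closest profile to Hbb-bt, Trib3, within 0.260. Trp53i11 has only 26, 26 and 30 counts at 30 h.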

How the data were processed

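The authors deposited unnormalised counts of reads for each gene, and per the submitters' processing notes used cutadapt 1.13, STAR, HTSeq 0.6.1p1 and DESeq2 with genome build mm10. Their settings, and whether counting used strand, are not given in the sources used here. Library totals ran from 27754279 to 29949173 counts at day 0 and from 19241780 to 24154481 at 30 h. Symbols and exon lengths came from GENCODE M21, which held 54079 of the 54232 IDs. Genes were kept by edgeR's filterByExpr, scaled by TMM (factors 1.18 to 1.19 at day 0 and 0.82 to 0.87 at 30 h) and tested by edgeR's quasi-likelihood F test (edgeR 4.0.16, R 4.3.3, robust fitting, Benjamini-Hochberg adjustment over all genes, threshold 0.05). SEs were derived from the F statistic. The steps were tested on simulated data, in which 200 genes changed and the spread was the same in both groups. In the data 74.5% of genes were called and the spread was wider at 30 h, which the simulation does not cover.

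Shares and log2 ratios of counts (0.5 added) were tested by exact permutation, two-sided, with scipy 1.17.1, 11 comparisons in all, none of which can pass after adjustment. Replicates differed by more than sampling noise (chi-square per degree of freedom 4.27 to 87.9, the highest 2 with 30 h replicate 3). The members and lists were chosen with earlier results of these data known, and the ratios of Hbb-bh1 to Hbb-bs, of beta-like to alpha-like counts and of Hbb-y to Hba-x were added after the values were seen. Named genes are the members, locus neighbours with at least 10 counts in a library, the alpha-like genes, 5 fixed regulators with the largest rise and fall of each list, and the 3 closest profiles per member; 1 gene that the rule names is not reported here. Hbb-bh0, Hbb-bh2, Hbb-bh3, Ldb1, Tcf3, Mbd2, Hic2 and Dnmt1 fall outside this rule and were named after their values were seen. Alternatives were other scalings, filters, DESeq2 1.42.0, limma-trend (limma 3.58.1), a replicate block and each library left out.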

Additional observations from a re-analysis of the deposited data

How the results depend on the processing

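The log2 changes of the 4 members and of the summed adult genes kept their direction and stayed past the threshold under all 15 alternatives, with ranges of -3.69 to -3.04 for Hbb-y, 6.02 to 6.73 for Hbb-bh1, 7.26 to 7.95 for Hbb-bs and 6.64 to 7.32 for Hbb-bt. Under scaling by totals only the median log2 change was -0.58 over all genes tested, against -0.09, and higher genes went from 5553 (46.1% of calls) to 3601 (29.1%). Between libraries of the same replicate number the correlations of deviations from the group means were -0.105, 0.105 and -0.0293. With 3 libraries a group and a wide spread at 30 h, these values cannot decide whether the libraries were paired. In a fit with a replicate block the changes were -3.20, 6.49, 7.72 and 7.11, and 11531 genes were called against 12036, with no call of a member changed. The difference in the Hbb-bt share of beta-like counts was -0.209 percentage points without day 0 replicate 3 and ranged from -0.266 (without 30 h replicate 2) to 0.654 (without 30 h replicate 3), so it has no fixed sign. The other shares and ratios kept their direction. Leaving out 1 library gave 2 to 4 genes of the repressor list called higher, and DESeq2 gave 4. The Dnmt1 log2 change, which did not pass, was -0.06 with all libraries, 0.01 without day 0 replicate 2, 0.25 without 30 h replicate 3 and -0.33 without 30 h replicate 1, and the cause was not tested. Of the members, Hbb-y at 30 h and Hbb-bh1 at day 0 had the fewest counts. Counting alone gives a coefficient of variation of at most 5.30% and 4.94% there, against 13.4% and 11.2% observed.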
